A study of Mus musculus with 4 samples.

Results

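Glycosyltransferases are the Golgi and endoplasmic reticulum enzymes that build the sugar chains of secreted and membrane proteins, and the prostate is a secretory gland whose luminal cells export large amounts of glycoprotein. The genes described here are the 79 of 23242 rows of the deposited expression table whose symbol starts with Galnt, St3gal, St6gal, Fut and a digit, B4galt, B3galt, B3gnt, Gcnt, Mgat or C1galt. They were placed in 5 classes: 25 rows for O-glycan initiation and cores, 14 for sialyltransferases, 9 for fucosyltransferases, 8 for N-glycan branching, and 23 for chain extension and linker synthesis. Of the 79, 6 carry a newer RefSeq name, so Galntl4 is now Galnt18, Galntl2 is Galnt15, Galntl1 is Galnt16, B3galtl is B3glct and B3gnt1 is B4gat1. Fut4-ps1 and B3gnt9-ps are named as pseudogenes in the table, but the newer RefSeq name of B3gnt9-ps is B3gnt9.

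Each library holds RNA of the prostate (ventral and dorsal lobes) of 1 FVB mouse. Mice 27 and 28 were wild type and ERG negative, and mice 26 and 29 were homozygous for TMPRSS2:ERG and ERG positive. The transgene is a TMPRSS2 BAC that carries part of human ERG behind a floxed GFP, and injected Cre protein was used to make the fusion line. All homozygotes descend from a single subline, so its insertion site and the fusion gene cannot be told apart. Ages and litters were not used here, and no other transgene is named for either group. The lobes are bulk tissue, in which fewer cells of a type and less RNA per cell cannot be told apart.

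O-glycans of the mucin type start when a polypeptide GalNAc-transferase adds N-acetylgalactosamine to serine or threonine. C1galt1 then adds galactose to make core 1, Gcnt enzymes branch it to core 2, and sialyltransferases can cap either sugar and stop growth. N-glycans are transferred as a block and later branched by the Mgat enzymes, and B4galt and B3gnt enzymes extend the arms of both kinds with alternating galactose and N-acetylglucosamine. Fucosyltransferases decorate the core of N-glycans or the outer ends that carry blood group and Lewis structures.

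By the step between the lowest FPKM values, 1 FPKM stands for an estimated 41.3 to 47.5 fragments per kilobase of transcript in these libraries. All 9 prostate luminal markers on the list (among them Krt8 and Pbsn) were above the filter on low values, with a summed level of 11393 to 16361 scaled FPKM. The mouse Erg row was at 0.881 to 1.12 scaled FPKM with overlapping genotypes (exact permutation p = 1), and it does not check for the human cassette. Tmprss2 was at 74.2 and 78.7 scaled FPKM in wild types and 42.3 and 47.9 in homozygotes, with an exact permutation p of 0.33, the smallest that 2 against 2 allows. By limma it was lower in homozygotes (-0.75, adjusted p = 0.0209), a call lost with unscaled FPKM, without mouse 26 and without mouse 29. The 5 seminal vesicle genes that fell (Svs1, Svs3a, Svs3b, Svs6 and Sva) also differed widely between the wild types, with Svs1 at 3421 in mouse 27 against 236 in mouse 28 (scaled FPKM).

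The genotype comparison asks which of these enzymes differ in lobes that carry the fusion. In homozygotes 4 sialyltransferases, 4 O-glycan genes and B3gnt3 rose, led by St3gal4 (4.46 times the wild-type mean) and St6galnac4 (3.70 times), and St3gal5 and Galnt5 fell. None of the 6 tested fucosyltransferases and none of the 6 tested N-glycan branching genes passed. These numbers are too small to set either class apart from all genes. Levels are FPKM divided by a scaling factor per library, and each difference is homozygote minus wild type in log2(scaled FPKM + 1), tested with limma at a Benjamini-Hochberg adjusted p under 0.05 over all genes. Of the 79 rows, 58 were tested because their mean scaled FPKM reached 1, and 11 passed, 9 higher and 2 lower (19.0% of those tested). Over all 11762 genes tested the call rate was 7.65%, with 4.65% higher and 3.00% lower. With unscaled FPKM 73.0% of all calls were rises, against 60.8% with scaling. The filter uses the mean of all 4 libraries, and Galnt12, Galnt5, B3galt2 and B3gnt9-ps reached it through 1 genotype, so the counts are a description of the rows that passed it.

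The number of calls depended on the libraries: leaving out a wild type gave 17 (mouse 27) or 16 (mouse 28), and leaving out a homozygote gave 3 (mouse 26) or 2 (mouse 29). St3gal4 and St6galnac4 passed in each of these fits. Over all genes tested the number of calls moved the same way, up without either wild type and down without either homozygote. A call gained or lost in these fits, here and below, therefore does not by itself set an enzyme apart from other genes. The groups did not overlap for 42 of the 58 tested genes (72.4%, against 51.1% of all genes tested), 27 with the homozygotes higher and 15 lower. The median difference was 0.10 over the tested members and -0.003 over all genes tested. The median absolute log2 difference over the members was 0.169 between wild types, 0.10 between homozygotes and 0.243 to 0.270 between mice of different genotype. Over all genes the same values were 0.183, 0.106 and 0.170 to 0.224.

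**Figure D1:**
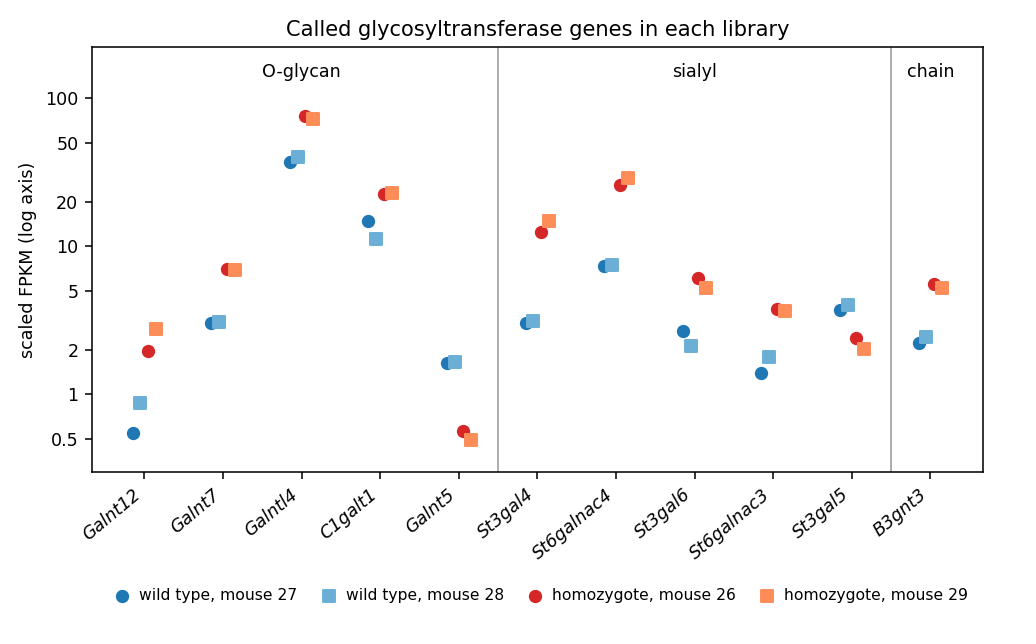
Scaled FPKM on a log axis for the 11 genes that passed the test, 1 point per library, grouped by enzyme class. In each gene the 2 homozygotes lie on the same side of both wild types, from Galnt5 at 0.494 in mouse 29 to Galntl4 at 76.0 in mouse 26.

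The 2 largest differences among the tested genes were in sialyltransferases. Of the 14 rows 11 were tested, 4 rose and 1 fell (45.5%, against 7.65% of all genes tested), and the median difference was 0.27. St3gal4, which caps terminal galactose with sialic acid on lactosamine chains, had 3.04 (mouse 27) and 3.12 (mouse 28) scaled FPKM in wild types, against 12.6 (mouse 26) and 14.9 (mouse 29) in homozygotes. The wild types were nearly equal and both homozygotes lay far above them (3.08 ± 0.0556 against 13.7 ± 1.66, SD, n = 2 each). In log2 units the difference came to 1.85 (SE 0.123, limma adjusted p = 0.00126). St6galnac4, which adds sialic acid to the N-acetylgalactosamine of an already sialylated core 1, was at 7.31 and 7.45 in wild types and 25.9 and 28.7 in homozygotes. Again the wild types agreed closely and the groups lay far apart, with a difference of 1.76 (SE 0.107, limma adjusted p = 9.86e-04). Both calls held in the 12 alternatives tried. Both rows overlap another row, St3gal4 that of 4930581F22Rik by 83 bases, so neither is counted where overlapping rows are left out.

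St3gal6, another enzyme of lactosamine ends, rose from 2.66 and 2.11 scaled FPKM to 6.07 and 5.20 (0.97, SE 0.140, limma adjusted p = 0.0157). St6galnac3, which acts on gangliosides and O-glycans, rose from 1.39 and 1.80 to 3.75 and 3.66 (0.86, SE 0.130, limma adjusted p = 0.0184). St3gal5, the enzyme that makes the ganglioside GM3 on a lipid acceptor, was lower in homozygotes, at 2.4 and 2.01 against 3.68 and 4.01 (-0.60, SE 0.125, limma adjusted p = 0.0483). The groups of these 3 genes did not overlap. Their calls were lost without mouse 26, without mouse 29 and with no filter, and that of St3gal5 also with unscaled FPKM and with quantile normalization.

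The remaining sialyltransferases did not pass. St6galnac6 was at 5.18 and 6.03 scaled FPKM in wild types and 8.18 and 11.8 in homozygotes (0.72, limma adjusted p = 0.0860), and it passed without mouse 28. It follows St6galnac4 on chromosome 2 (32587490 to 32600474 for St6galnac4 and 32599709 to 32620804 for St6galnac6, mm10), and the rows share 766 bases, so fragments in that stretch cannot be assigned to a single gene. St6galnac4 is also the only 1 of 63 members with an authors' fold whose value in the authors' deposited table (log2 fold 1.58) lies more than 0.2 from the log2 ratio of its mean FPKM (1.96). St3gal1, which caps core 1 galactose, was at 2.08 and 2.78 against 2.91 and 3.32 (0.27, 95% interval -0.10 to 0.63). St3gal3, another enzyme of lactosamine ends, was at 9.92 and 10.2 against 8.61 and 8.16 (-0.24), and St6galnac2, which acts on O-glycans, at 7.19 and 8.67 against 8.01 and 10.7 (0.21). These genes did not pass, nor did St3gal2 (-0.20) and St6gal1 (-0.18). St6galnac1, which caps the first sugar to make sialyl-Tn, was listed at 0 in both wild types and at 0.0575 and 0.136 in homozygotes, and with St6galnac5 and St6gal2 was too low to test.

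Shares within a library do not depend on scaling. St3gal3 was the leading St3gal transcript in wild types, with 41.0% ± 0.429 of the summed St3gal FPKM (SD, n = 2), and St3gal4 the leading one in homozygotes, with 38.8% ± 3.81 against 12.5% ± 0.158 in wild types. St6galnac4 held 32.6% ± 2.48 of the St6galnac sum in wild types and 54.2% ± 2.89 in homozygotes, while St6galnac2 held 34.8% ± 1.49 and 18.4% ± 1.39. The summed level of all 14 sialyltransferase rows was 47.5 and 51.6 scaled FPKM in wild types and 82.7 and 93.1 in homozygotes. Among Galnt rows, Galntl4 held 23.2% ± 0.115 in wild types and 35.1% ± 1.27 in homozygotes, and Galnt2 held 19.0% ± 0.0822 and 15.2% ± 0.0991.

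**Figure D2:**
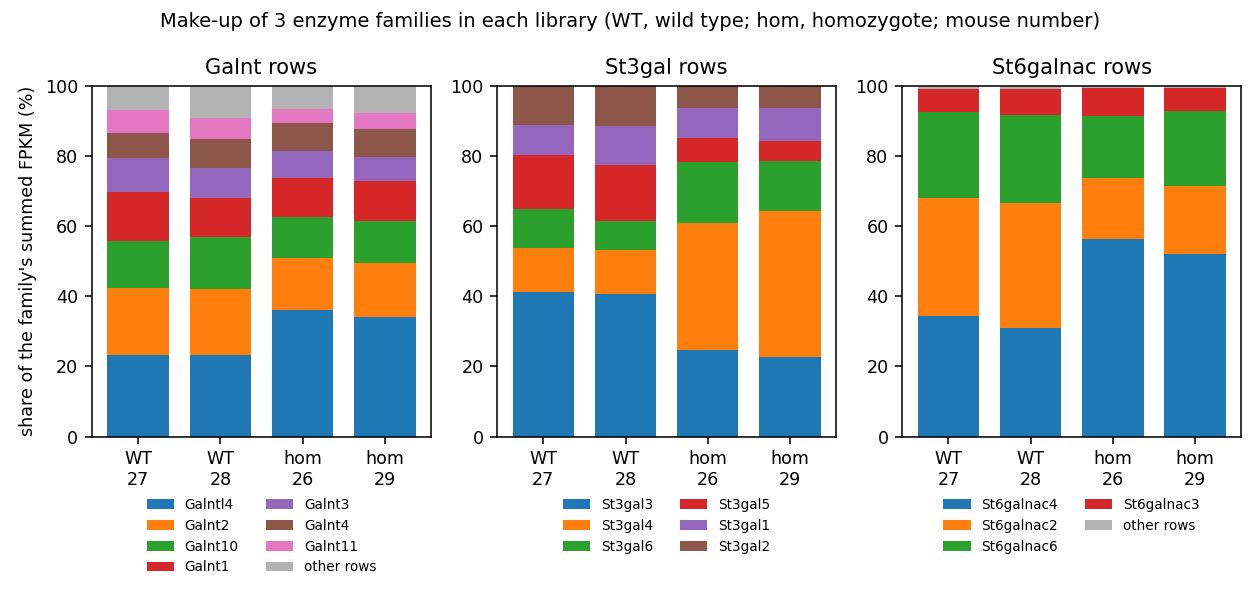
Stacked bars of the share (%) of each gene in the summed FPKM of the Galnt, St3gal and St6galnac rows, 1 bar per library (WT, wild type; hom, homozygote; mouse number below). St3gal4 takes 12.4% to 12.6% of the St3gal bar in wild types and 36.1% to 41.5% in homozygotes.

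Upstream sequence was read for the called genes, 7 higher and 2 lower among those with a window, since the transgene product is an ETS factor. RefSeq windows (GRCm38.p6) were found for 58 of the 79 members and 9 of the 11 called genes. No window was found for Galntl4 and Galnt12. The 250 bases before the start site are shown 5′ to 3′ on the gene's strand for the 2 largest rises and for the only called gene with an ETS match. Capitals mark matches on either strand to the ETS letters GGAAGT. The windows are chr9:35116865-35117114 (minus strand), chr2:32586828-32587077 (plus) and chr16:58524254-58524503 (minus), in this order.
St3gal4: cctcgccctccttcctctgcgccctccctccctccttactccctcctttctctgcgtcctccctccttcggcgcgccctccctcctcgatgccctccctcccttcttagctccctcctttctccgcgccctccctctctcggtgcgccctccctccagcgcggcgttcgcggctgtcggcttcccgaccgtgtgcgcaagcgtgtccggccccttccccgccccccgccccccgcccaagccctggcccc
St6galnac4: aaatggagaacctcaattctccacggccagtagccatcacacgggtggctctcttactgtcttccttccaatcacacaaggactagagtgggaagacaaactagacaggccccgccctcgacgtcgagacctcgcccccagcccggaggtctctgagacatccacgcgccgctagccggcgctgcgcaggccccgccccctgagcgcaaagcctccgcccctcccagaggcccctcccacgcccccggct
St3gal6: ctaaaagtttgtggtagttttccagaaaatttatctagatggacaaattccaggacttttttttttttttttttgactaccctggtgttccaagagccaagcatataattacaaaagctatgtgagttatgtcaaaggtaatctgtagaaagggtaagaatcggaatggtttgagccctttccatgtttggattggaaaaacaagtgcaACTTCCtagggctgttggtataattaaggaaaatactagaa

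The windows of St3gal4 and St6galnac4 do not hold these letters. GGAAGT was found in 25.0% of 84 member windows and in 19.7% of all 32851 windows of that length. Among the 10 windows of called genes, GGAAGT occurred in 1, the St3gal6 window whose start site lies 941 bases from the one in the expression table, read from the opposite strand at 41 to 36 bases before the start. The other St3gal6 window, 114 bases from it, holds no match. The St6galnac4 start site lies 412 bases and that of St3gal4 54 bases from the start in the expression table. A match is a description of the letters and not of binding.

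Among enzymes for O-glycan initiation and cores the calls lay in both directions, with Galnt5 the only fall. Galnt5 reached the filter through the wild types only, and Galnt12, a rise, through the homozygotes only. Of 25 rows 16 were tested, 4 rose and 1 fell (31.2%, against 7.65% of all genes tested), and the median difference was 0.06. Galntl4, a member of the GalNAc-transferase family, was the O-glycan row with the highest mean, at 36.9 and 39.9 scaled FPKM in wild types and 76.0 and 72.0 in homozygotes. Levels in homozygotes were 1.93 times those in wild types and the groups lay well apart (0.93, SE 0.110, limma adjusted p = 0.00844). Galnt7, which prefers peptides that already carry N-acetylgalactosamine, rose from 3.05 and 3.08 to 7.0 and 6.91 (0.97, SE 0.105, limma adjusted p = 0.00634). Galnt12 was at 0.547 and 0.873 in wild types and 1.97 and 2.78 in homozygotes (0.98, SE 0.177, limma adjusted p = 0.0322), where the ratio of means was 3.34 and the log2 scale with a pseudocount of 1 understates it.

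C1galt1, the galactosyltransferase that makes core 1, rose from 14.9 and 11.1 scaled FPKM to 22.6 and 22.8 (0.77, SE 0.151, limma adjusted p = 0.0405). The homozygotes were nearly equal and the wild types differed more from each other. Its X-linked chaperone C1galt1c1 (Cosmc), needed to fold the enzyme, was at 41.2 and 32.2 in wild types and 53.7 and 47.7 in homozygotes, without overlap, and did not pass (0.46, 95% interval 0.09 to 0.84, limma adjusted p = 0.155), although it did without mouse 27. Galnt5 was the only O-glycan row that fell, from 1.63 and 1.65 to 0.563 and 0.494 scaled FPKM (-0.79, SE 0.122, limma adjusted p = 0.0196). Gcnt1, which branches core 1 to core 2, was at 2.05 and 2.10 against 1.36 and 0.978 and did not pass (-0.51, 95% interval -0.85 to -0.17, limma adjusted p = 0.0997).

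The calls of Galntl4, Galnt7, C1galt1 and Galnt5 were lost without mouse 26 and without mouse 29, and that of Galnt12 without mouse 29. Those of C1galt1 and Galnt12 were also lost with no filter, that of C1galt1 with quantile normalization and that of Galnt12 with unscaled FPKM. With a pseudocount of 0.1 Galnt12 was at 1.62 and Galnt5 at -1.47. Galnt5 was under the filter when either wild type was left out. The row AW046200 overlaps Galnt7 by 1303 bases and had at most 0.0511 scaled FPKM in any library.

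Among the remaining GalNAc-transferases none passed. Galnt2 was at 30.1 and 32.9 scaled FPKM in wild types and 31.9 and 32.1 in homozygotes (0.02, 95% interval -0.24 to 0.29). Galnt1 (0.19), Galnt3 (0.04), Galnt10 (0.09), Galnt11 (-0.19) and Galntl2 (-0.19) did not pass either. Galnt4 (0.38) and Galnt9 (-0.41) did not pass although their groups did not overlap (they passed without mouse 28 and without mouse 27), and the Galnt4 row lies inside that of Poc1b. Galntl1, which passed without mouse 27, varied within genotype, at 0.878 and 2.64 in wild types and 0.640 and 1.52 in homozygotes (-0.36). The other 9 O-glycan rows were too low to test. They include the core 3 enzyme B3gnt6 and the mucin-type branching enzyme Gcnt3, at most 0.0737 and 0.230 in any library, and Galntl5, listed at 0 in all 4. Galnt13, Galnt14, Galntl6, Gcnt4 and Gcnt7 were at most 0.354. Galnt6 was at 0.236, 1.89, 0.296 and 0.592 in mice 27, 28, 26 and 29, so its mean of 0.753 rests mainly on mouse 28. In the authors' deposited table its log2 fold is -1.43 (q-value 6.58e-08).

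**Figure D3:**
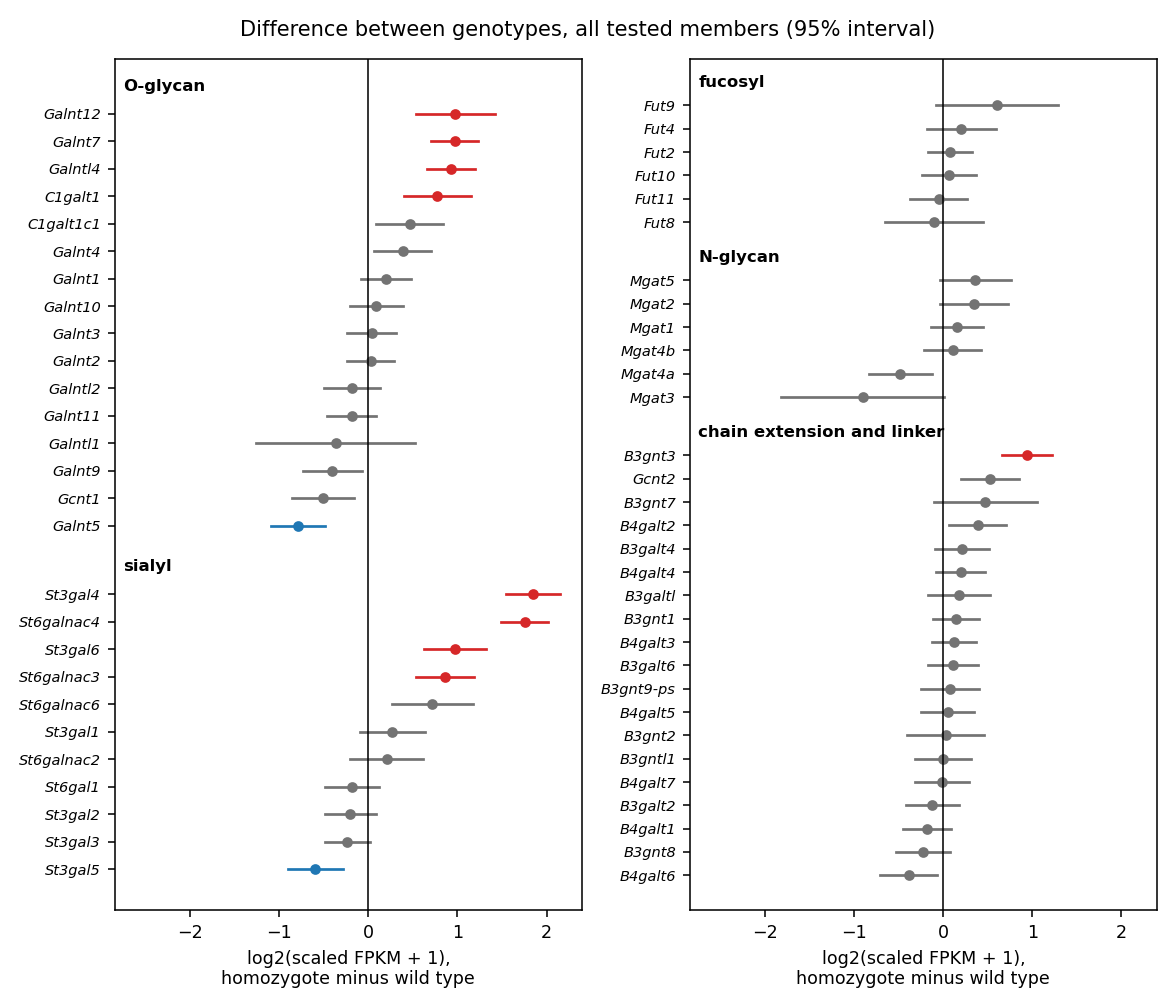
Difference between genotypes in log2(scaled FPKM + 1) with its 95% limma interval for the 58 tested genes, by class (red, passed and higher; blue, passed and lower; grey, did not pass). The sialyl and O-glycan classes, with 11 and 16 of the 58 tested genes, hold 10 of the 11 that passed. The intervals of Fut2, Galnt2 and B4galt3 include 0.

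No fucosyltransferase passed at limma adjusted p under 0.05 among the 6 tested of 9 rows, and none had an unadjusted p under 0.05. Fut8, which adds the core fucose of N-glycans, was the most abundant at 45.4 and 28.7 scaled FPKM in wild types and 31.8 and 35.4 in homozygotes (-0.10, 95% interval -0.65 to 0.45). The wild types differed more from each other than the genotypes did. Fut2, which makes the H antigen of secretions, was at 28.1 and 29.2 against 30.9 and 29.5 (0.08, 95% interval -0.17 to 0.33). Fut9, an enzyme of Lewis x ends, was at 5.66 and 2.98 in wild types and 5.75 and 8.03 in homozygotes (0.60, 95% interval -0.08 to 1.28). Its groups barely separated, and it passed without mouse 27. In the authors' deposited table its log2 fold is 0.75 (q-value 0.00377). Fut11 (-0.05), Fut4 (0.20) and Fut10 (0.07) did not pass, and Fut1, Fut7 and Fut4-ps1 were at most 0.220 scaled FPKM in any library.

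None of the N-glycan branching genes passed among the 6 tested of 8 rows by limma, and 1 had an unadjusted p under 0.05. Mgat2, needed for complex chains, led at 51.5 and 42.6 scaled FPKM in wild types and 65.5 and 54.3 in homozygotes (0.34, 95% interval -0.04 to 0.72). Mgat4b was at 27 and 30.0 against 28.1 and 33.5 (0.10), and Mgat1, which opens the way to hybrid and complex chains, at 15.5 and 18.0 against 19.2 and 18.3 (0.16). Mgat4a was lower in both homozygotes, at 5.82 and 6.63 against 10.2 and 8.10 (-0.49, 95% interval -0.84 to -0.13, limma adjusted p = 0.122). Mgat3, which adds the bisecting sugar, differed more between the wild types (2.25 and 6.14) than between the genotype means (1.29 and 1.87 in homozygotes, -0.91, 95% interval -1.83 to 0.01). Mgat3 passed without mouse 27, and in the authors' deposited table its log2 fold is -1.48 (q-value 4.37e-07). Mgat4a passed without mouse 28, as did Mgat5 (0.36), which makes the branch favoured for long lactosamine chains. Mgat4c and Mgat5b were at most 0.173 scaled FPKM in any library.

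In chain extension and linker synthesis 1 of 19 tested genes rose and none fell, of 23 rows. That is 5.26%, near the 7.65% of all genes tested, and the median difference was 0.11. B3gnt3, which extends core 1 with N-acetylglucosamine, was at 2.21 and 2.43 scaled FPKM in wild types and 5.54 and 5.19 in homozygotes (0.94, SE 0.114, limma adjusted p = 0.00910). The homozygotes were 2.31 times the wild types, and the call was lost without mouse 26 and without mouse 29. Gcnt2, which branches linear lactosamine to the I antigen, was at 7.59 and 9.44 against 12.9 and 12.4 and did not pass (0.53, 95% interval 0.20 to 0.85, limma adjusted p = 0.0788). It passed without mouse 28. B4galt6, which makes lactosylceramide, was lower in both homozygotes at 7.55 and 7.32 against 9.05 and 11.2 (-0.39, limma adjusted p = 0.160), and passed without mouse 27.

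None of the 3 most abundant extension enzymes passed. B4galt4 was at 55.3 and 50.1 scaled FPKM in wild types and 59.6 and 61.2 in homozygotes (0.19, 95% interval -0.08 to 0.47), and B4galt1, the main lactosamine galactosyltransferase, at 32.6 and 31.4 against 26.7 and 29.5 (-0.18, 95% interval -0.45 to 0.09). B3gnt7 overlapped between genotypes, at 24.4 and 16.3 against 23.9 and 33.0 (0.47), and passed without mouse 27. The linker enzymes of glycosaminoglycans, B4galt7 (-0.02) and B3galt6 (0.11), did not pass. Neither did B3gnt2 (0.03), B3gnt8 (-0.23), B3gnt1 (0.15), B3gntl1 (-0.003), B3gnt9-ps (0.08), B3galt2 (-0.12), B3galt4 (0.21), B3galtl (0.17), B4galt3 (0.12), B4galt5 (0.05) and B4galt2 (0.38), the last of which passed without mouse 28. The 4 untested rows were B3galt1, B3galt5, B3gnt5 and B3gnt4, at most 0.548 in any library, and B3gnt4 was listed at 0 in all 4. The authors' deposited table calls 16 of 63 members at a q-value under 0.05, against 14.2% of its genes. They include the 11 called here, in the same direction, and another 5, namely B3gnt7, Fut9, Gcnt2, Mgat3 and Galnt6.

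Among 24 genes of nucleotide sugar synthesis and transport, 4 rose and none fell (16.7%, against 7.65% of all genes tested, median 0.07). Cmas, which activates sialic acid to the donor CMP-sialic acid, was at 58.9 and 56.7 scaled FPKM in wild types and 119 and 105 in homozygotes (0.94, SE 0.121, limma adjusted p = 0.0110). Nans, which makes the sialic acid backbone, rose from 93.9 and 93.8 to 161 and 138 (0.66, limma adjusted p = 0.0415). The other steps of that route, chosen after their values were seen, did not pass: Gne, its first enzyme, was at 52.3 and 60.9 against 57.2 and 59.2 (0.04), Nanp differed by -0.03, and the CMP-sialic acid transporter Slc35a1 was at 26.6 and 22.3 against 17.4 and 16.6 (-0.50, limma adjusted p = 0.0791). The GDP-fucose transporter Slc35c1 rose from 12.2 and 14.7 to 22.8 and 22.7 (0.72, limma adjusted p = 0.0265). The calls of Cmas, Nans and Slc35c1 were lost without mouse 26 and without mouse 29, those of Nans and Slc35c1 also with no filter, and that of Slc35c1 with unscaled FPKM.

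Of 30 genes for the N-glycan precursor, its transfer and its trimming, 2 rose and none fell (6.67%, against 7.65% of all genes tested, median 0.13): Man2a1, a Golgi mannosidase (0.73, limma adjusted p = 0.0255), and Alg8 (0.49, limma adjusted p = 0.0485). Among 22 tested of 34 other glycosyltransferases 1 rose and 2 fell (13.6%, against 7.65% of all genes tested, median -0.02). Abo, the blood group A and B transferase that acts on the H antigen, fell from 375 and 371 scaled FPKM to 145 and 112 (-1.54, SE 0.170, limma adjusted p = 0.00661). B4galnt3, which makes LacdiNAc ends, fell from 1.85 and 3.06 to 0.286 and 0.176 (-1.47, limma adjusted p = 0.0128). B4galnt3 reached the filter through the wild types only. The call of Abo held in the 12 alternatives. Gyltl1b, an enzyme of the matriglycan of dystroglycan, rose from 19.4 and 19.1 to 32.1 and 34 (0.75, limma adjusted p = 0.0124). Of 11 tested glycosidases 3 rose (27.3%, against 7.65% of all genes tested, median 0.52), among them the lysosomal Hexa (1.01) and Glb1 (0.58).

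Of 23 listed mucin and mucin-like genes 18 had a row and 8 were tested. Of these 1 rose (12.5%, against 7.65% of all genes tested), the lysosomal membrane glycoprotein gene Lamp1 (0.76, limma adjusted p = 0.0485). Muc1 was at most 0.232 scaled FPKM in any library, and Muc4 and Muc5ac were listed at 0 in all 4. Muc20 was at 4.52 and 4.85 in wild types and 5.78 and 6.26 in homozygotes and did not pass (0.30, limma adjusted p = 0.193). The calls of Man2a1, Alg8, Gyltl1b, Glb1 and Lamp1 were lost without mouse 26 and without mouse 29, that of Lamp1 also without mouse 27 or mouse 28, and that of Hexa only without mouse 26. Those of Glb1 and Lamp1 were also lost with no filter and with quantile normalization, and that of Glb1 with unscaled FPKM. The call of Alg8 was lost under another 5 of the 12 alternatives.

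Lists of marker genes for other cell types were read beside these enzymes. Over all genes tested 4.65% rose and 3.00% fell. In the mast cell list 5 of 6 genes rose (Tpsab1, Tpsb2, Cpa3, Cma1 and Mcpt4), and the summed level was 11.8 and 14.7 scaled FPKM in wild types and 296 and 231 in homozygotes. Tpsab1 reached the filter through the homozygotes only. In the goblet or mucous list 1 of 4 tested genes rose, Spdef, a factor of secretory epithelium, at 20.1 and 20.7 in wild types and 40.7 and 37.0 in homozygotes (0.90, limma adjusted p = 0.00848). The summed level of that list was 426 to 641 in wild types and 832 to 999 in homozygotes, nearly all of it Agr2, while Muc5ac was at 0. Agr2 itself did not pass (0.82, limma adjusted p = 0.149), nor did Fcgbp (0.16) and Tff3, which lay in the other direction (-0.94). In smooth muscle 0 of 6 passed by limma at an adjusted p under 0.05, and all 6 lay lower in homozygotes without overlap, as did 25.8% of all genes tested (1846 to 2700 summed against 1319 to 1553). In the seminal vesicle list 5 of 7 tested genes fell, but none of the 5 passed under the robust trend or with no filter. Over the 7 genes with a value in every library (3 are missing in at least 1) the wild types summed to 37006 (mouse 27) and 10856 (mouse 28) and the homozygotes to 4341 and 8173. The part of these cell types in the enzyme differences was not tested. No tested row among the 4 nearest to each called enzyme passed, except Atoh8 beside St3gal5, which rose (0.86, limma adjusted p = 0.0109) where St3gal5 fell.

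**Figure D4:**
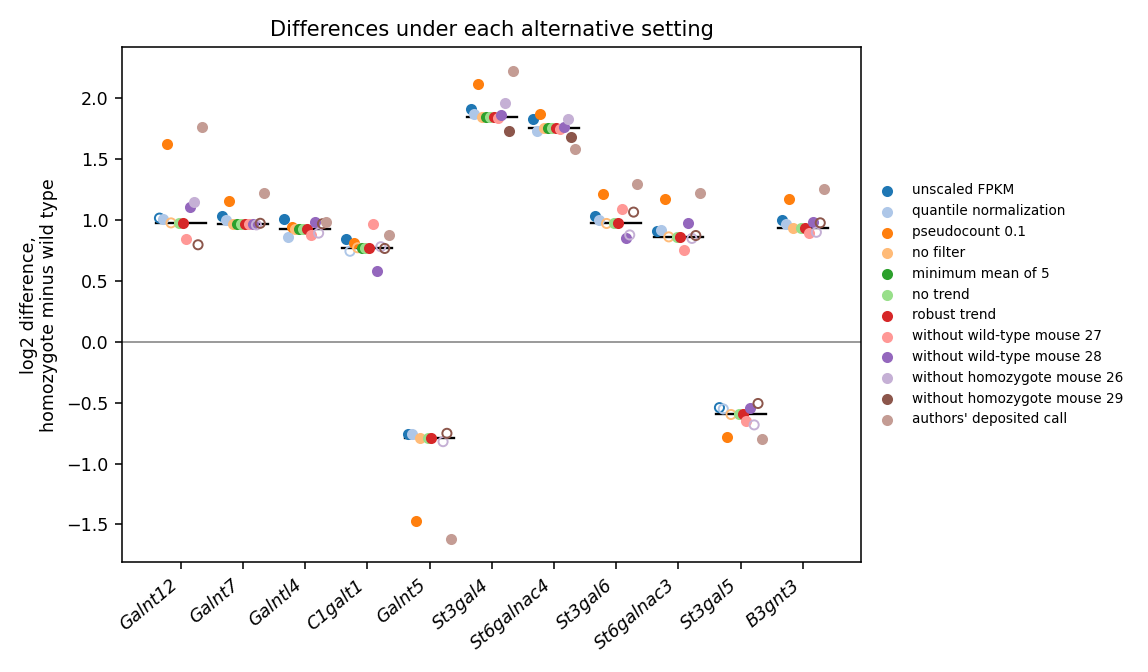
Log2 difference (homozygote minus wild type) of the 11 called genes under each alternative setting; the black bar is the main value, filled points passed the threshold of 0.05 and open points did not. No point crosses 0, and St3gal4 and St6galnac4 have filled points throughout, from 1.58 to 2.23.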

How the data were processed

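RNA of 4 prostate libraries was sequenced after RNeasy Plus extraction, per the labels' protocols. The authors deposited 1 FPKM value per gene and library, a unit read from the values because the headers give none. TopHat 1.3, Cufflinks 1.3 and build mm10 are named in the submitters' processing notes without a role. For settings, annotation and strandedness nothing is stated in the labels or headers. Per the file headers, the authors also gave each gene a log2 fold, a p-value and a q-value. A value of 99999, found in 7 genes, was treated as missing. Starts in the table were raised by 1, after which 36 of 79 members shared their start with RefSeq, against 3 without.

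FPKM was divided by median-of-ratios factors (0.921 and 1.03 in mice 27 and 28, 1.01 and 1.04 in mice 26 and 29), and log2(scaled FPKM + 1) of genes with a mean of at least 1 entered a linear model in limma 3.58.1 under R 4.3.3 (trend, 2 residual and 3.62 prior degrees of freedom, two-sided, Benjamini-Hochberg). The fit was tested on simulated data. Libraries shared at most 1 identical non-zero value. The mice are separate by label, so p-values rest on the spread between these mice, which limma draws towards that of other genes at a like level. Members and lists were chosen with earlier results of these data known. Named genes are all called members and, per class, the 3 most abundant and the 2 largest uncalled differences without overlap; called genes of the lists are named too, and the remaining members are named to account for them. The fit was repeated with quantile normalization, without scaling, at a pseudocount of 0.1, with the low-value filter removed or raised to 5, with the trend removed or made robust, and with each library left out, and the authors' deposited q-value was read as another test. Leaving out rows that overlap another row was added after the data were seen. With a library left out, its partner is taken to vary as the other genotype does. The neutrophil and lymphocyte lists had no tested gene. Lists for basal cells, urothelium, fibroblasts, endothelium and macrophages had none that passed, and in the red blood cell list Alas2 fell. Some called list genes and a search for another promoter motif are not reported here. FPKM values are not counts, so no count test was run.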

Additional observations from a re-analysis of the deposited data

How the results depend on the processing

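The libraries, more than the settings, moved the counts, each of which is read at 0.05. Leaving out each library in turn gave 355 to 2028 calls over all genes (216 to 995 higher, 139 to 1033 lower) and 2 to 17 over the glycosyltransferases (2 to 14 higher, 0 to 5 lower). By class these ranges were 0 to 5 higher and 0 to 2 lower for O-glycan, 2 to 5 higher and 0 to 1 lower for sialyl, 0 to 1 higher for fucosyl, 0 to 1 in either direction for N-glycan, and 0 to 3 higher and 0 to 1 lower for chain extension. The authors' deposited q-value called 2034 genes (1012 higher, 1020 lower), and among members 4 lower, with O-glycan 2 lower, fucosyl 1 higher, N-glycan 1 lower and chain extension 3 higher. With no filter 6 members passed (5 higher, 1 lower), 2 of them O-glycan higher, 2 sialyl higher and 0 sialyl lower. With a minimum mean of 5, 231 of all genes were lower and 5 members passed, 5 higher and 0 lower, with sialyl 2 higher and 0 lower, O-glycan 0 lower and chain extension 0 higher. Unscaled FPKM gave 185 genes lower over all and 1 member lower, with sialyl 0 lower, and moved the median of all genes to 0.06. Quantile normalization also gave 1 member lower and sialyl 0 lower. Without rows that overlap another row, an alternative chosen after seeing the data, 7 members passed, 1 of them lower, with sialyl 2 higher and 0 lower. Fewer genes are tested there, because it leaves out the called rows St3gal4, St6galnac4, St3gal5 and Galnt7. The 2 sialyl rises that remain are St3gal6 and St6galnac3. With a minimum mean of 5, 34 members were tested, and the called members still tested kept their call. B3gnt3, Galnt12, Galnt5, St3gal6, St3gal5 and St6galnac3 were under that filter and not tested. For the other alternatives the cause was not tested. Of 124 values of the 11 called members under these alternatives, 98 kept their call, 26 lost it and 0 changed direction. No paired analysis was possible because the genotypes share no mouse number. Depth is an estimate, so no interval rests on it.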
